A study of Mus musculus with 37 samples.

Results

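Liver RNA of female (XX) mice with the STAT5B substitution Y665H was compared with liver RNA of wild-type (WT) females. The 12 libraries, 6 Y665H and 6 WT, were chosen by the genotype and sex given for each sample, out of 37 in the series. All mice were of the C57BL/6 strain and 2 months old, and no drug, diet or hormone treatment is given for any group. Y665H puts a histidine in place of a tyrosine of the SH2 domain of STAT5B. Whether the mice carried the change on 1 allele or on both, and from how many founders or litters they came, is not given. Values of the 6 WT males, the 4 Y665H males and the 6 Y665F females (phenylalanine in place of the same tyrosine) are set beside those of the 12 libraries where they bear on a result. RNA of frozen livers was depleted of ribosomal RNA and sequenced from both ends. Library reagents of both Illumina and New England Biolabs are named without saying which libraries were made with which, so a kit that follows genotype could not be told apart from genotype.

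STAT5B is the main transcription factor through which growth hormone acts on hepatocytes. After the growth hormone receptor activates JAK2, STAT5B is phosphorylated on tyrosine, dimerises through its SH2 domain and binds DNA at sites that read TTCNNNGAA. In rodents the pattern of growth hormone release differs between the sexes, and through STAT5B it maintains many liver genes at different levels in males and females, with CUX2 and BCL6 as repressors that act in the female and the male liver.

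Gene counts per library ranged from 25557377 to 40864173 in WT females and from 27176972 to 38818886 in Y665H females. Ddx3y, on the Y chromosome, had 0 counts in all 12 libraries, which the choice of libraries required. Xist, the RNA that silences an X chromosome, lay between 412 and 863 CPM (counts scaled to the size of each library) in them and at 0.453 CPM or below in the WT and Y665H males. The Xist levels match the label XX. A substitution cannot be read from counts per gene, so the genotype labels were not checked. The labels do not say outright that each library is a different animal, so p-values here measure the spread between these samples. Hepatocyte markers (9 tested) summed to between 109236 and 147377 CPM across the 12 livers and none was called.

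The Y665H females varied more among themselves than any other group: the median standard deviation of a gene's log2 CPM was 0.217 in them and 0.167 in WT females. On the first principal component of the 12 libraries (26.7% of the variance) the WT females lay between -25.2 and -8.83. Y665H replicates 1 to 5 lay at 4.07, 46.3, 13.3, 33.4 and 28.9, and replicate 6 lay among the WT livers, at -18.1. On the second component replicate 6 lay at -18.6, below all WT females (-8.76 to 17.9). Libraries at the ends of the first component were also at the ends of the share of counted items that fell in no annotated feature. Y665H replicate 6 (15.3%), WT replicate 2 (14.7%) and WT replicate 5 (13.2%) had the highest shares and the lowest positions on this component. Y665H replicates 4 (7.21%), 5 (7.39%) and 2 (8.16%) had the lowest shares and the highest positions. Its mean was 11.6% in WT and 9.59% in Y665H females, a difference of -1.98 percentage points (exact 2-sided permutation test, p = 0.208, adjusted over 3 such shares 0.312). The share aligned to more than 1 place, which holds reads of near-identical genes, was 2.12 percentage points higher in Y665H (exact 2-sided permutation test, p = 0.165, adjusted 0.312). The part of the share in no feature in the gene-level results was tested only as a covariate.

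**Figure D1:**
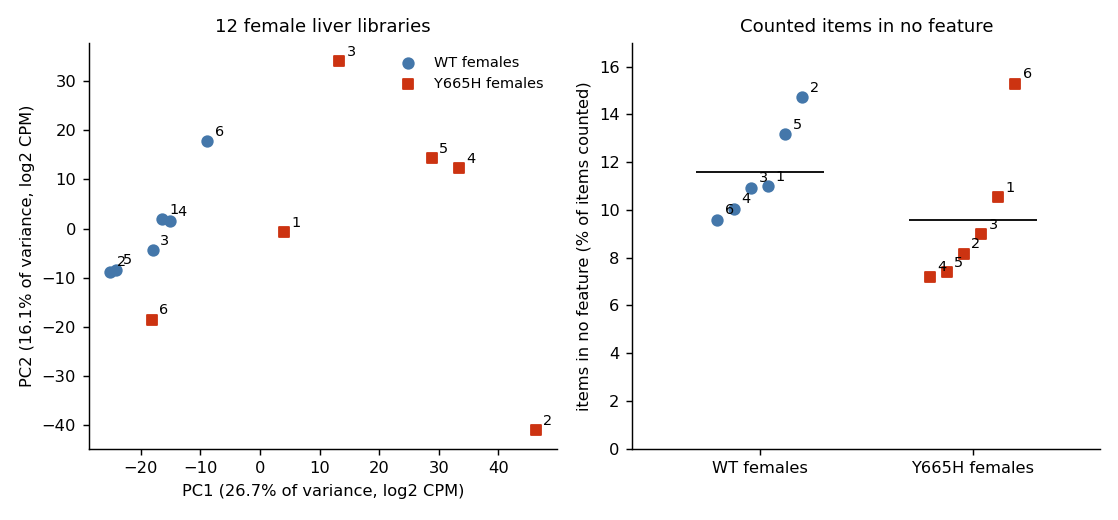
Left, positions of the 12 female liver libraries on the first and second principal components of log2 CPM, with replicate numbers. Right, items counted in no feature as a percentage of all items counted, with the group mean as a line. Y665H replicate 6 lies among the WT libraries on the first component and has the highest share in no feature, 15.3%. On the second component it lies below all WT libraries, at -18.6.

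Which genes differ between Y665H and WT livers in females was tested with edgeR's quasi-likelihood test. A gene is called at a Benjamini-Hochberg adjusted p-value under 0.05 in the fit to all 37 libraries, whose groups share 1 estimate of spread. Of 15152 genes tested, 1136 were called (7.5%), 666 higher in Y665H (4.4%) and 470 lower (3.1%). The same test on the 12 libraries alone called 80 of 13609 genes (0.588%), 38 higher (0.279%) and 42 lower (0.309%). Both fits called 73 genes (0.482% of those tested), 35 higher (0.231%) and 38 lower (0.251%). In 58 of the 73 the 6 Y665H values did not overlap the 6 WT values, against 241 genes (1.59%) without overlap among all tested, 134 higher (0.884%) and 107 lower (0.706%) in Y665H. The 73 were chosen by tests of these same values, which favours genes without overlap, so the 58 are not separate support. Of the 73, 68 stayed called with the share in no feature as a covariate, 70 in each of the 12 fits that left out 1 of the libraries compared, and 51 in limma-voom with a quality weight per group. In size, 27 of the 73 had a log2 fold change of at least 1 in size. The count of 1136 was 442 without Y665H replicate 2 and 2743 without Y665H replicate 6, and 1910 without both. Of the 59 called genes that the text describes, 19 were not called with the share in no feature as a covariate (adjusted p 0.05001 to 0.264): Lgals1, Xirp1, Sult3a1, Atp6v0d2, Gstp1, Nudt7, Gstm4, Gstm1, Gsta3, Ugt2b34, Ugt2b36, Ephx1, Akr1c6, Abcd3, Apoc1, Klrb1c, Lck, Ncr1 and Alas2. With the quality weights 31 of the 59 were not called (0.05001 to 0.228). Those among them called in both fits were Cyp3a41a (0.0639), Dct (0.0893), Xirp1 (0.223), Nat8 (0.0775), Fitm1 (0.0692), Lgals1 (0.168), Gsta4 (0.0521) and Gzmb (0.0513). The text therefore gives for most genes described the adjusted p of the 12-library fit as well.

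**Figure D2:**
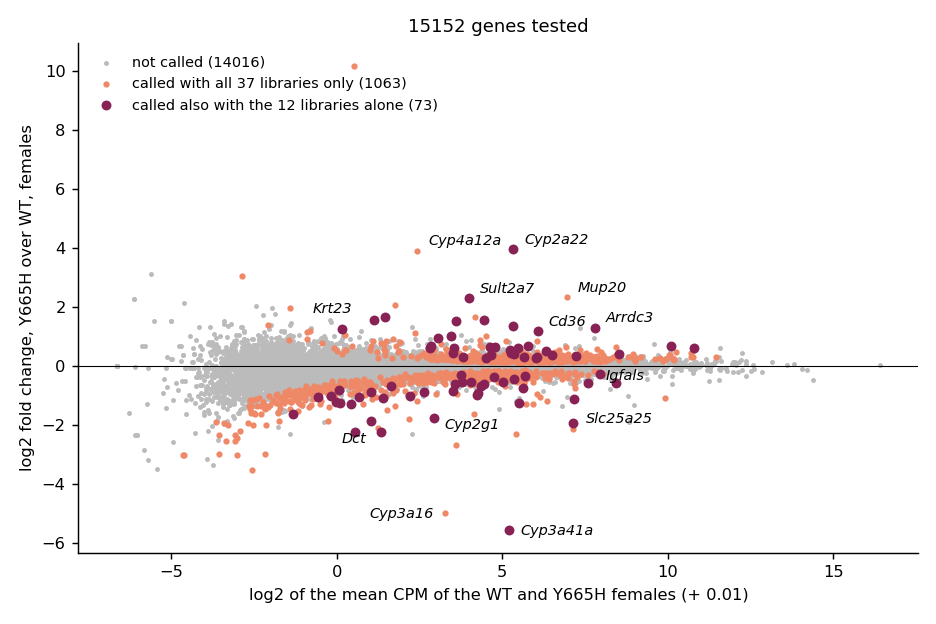
Log2 fold change of Y665H over WT females against the log2 of the mean CPM of both groups (0.01 added), 1 point per gene tested. Dark points mark the 73 genes called in both fits, which reach from Cyp3a41a at -5.53 to Cyp2a22 at 3.97. Orange points mark genes called only in the fit to all 37 libraries.

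The largest increase among genes called in both fits was in Cyp2a22, a cytochrome P450 of the Cyp2a family (chromosome 7, 26931631 to 26939384, minus strand, GRCm38). Cyp2a22 lay at 3.90, 4.78 and 5.96 CPM (lowest, median, highest) in WT females and at 28.6, 79.6 and 136 CPM in Y665H females. The groups did not overlap: replicate 1 was the highest and replicate 2 the lowest of the Y665H livers, and each stood above every WT liver. The log2 fold change was 3.97 (SE 0.72, adjusted p 0.00179, 12 libraries 0.000204). Cyp2a22 shares sequence with other Cyp2a genes, and reads that align to more than 1 place are not in its counts.

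Sult2a7, a sulfotransferase that conjugates steroids and bile acids (chromosome 7, 14465051 to 14494230), was 3.25, 5.05 and 8.23 CPM in WT and 11.2, 18.5 and 71.7 CPM in Y665H females. The groups were separate, and the highest value, of Y665H replicate 2, stood far above the next, 21.0 CPM. The log2 fold change was 2.31 (SE 0.35, adjusted p 0.000305, 12 libraries 0.0183), and 1.71 without that replicate (adjusted p 0.00149). Sult2a7 also has close paralogs, so its counts are uncertain.

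Krt23, a type I keratin (chromosome 11, 99477974 to 99493137), was 0.768, 0.802 and 2.14 CPM in WT and 1.73, 3.11 and 4.94 CPM in Y665H females. WT replicate 3 overlapped the Y665H range, and all Y665H livers were above the WT mean. The log2 fold change was 1.57 (SE 0.32, adjusted p 0.00382, 12 libraries 0.0343). Serpina7, which encodes thyroxine-binding globulin, was 8.80, 11.1 and 13.5 CPM in WT and 15.9, 29.3 and 61.1 CPM in Y665H livers, without overlap (log2 fold change 1.56, adjusted p 0.00402, 12 libraries 0.0155).

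Arrdc3, an arrestin-domain protein that takes part in trafficking of membrane receptors (chromosome 13, 80883384 to 80896042), was 96.7, 132 and 164 CPM in WT and 186, 305 and 435 CPM in Y665H females. No Y665H liver overlapped a WT liver, and the log2 fold change was 1.29 (SE 0.26, adjusted p 0.00320, 12 libraries 0.00871). The organic anion transporter family member Slc22a29 was 0.866, 1.30 and 1.81 CPM in WT and 1.97, 4.14 and 5.82 CPM in Y665H (log2 fold change 1.68, adjusted p 0.000653, 12 libraries 0.00871), again without overlap. Nat8, an N-acetyltransferase of the mercapturic acid route, had a log2 fold change of 1.26 (adjusted p 0.00591, 12 libraries 0.0447) and also did not overlap. Akr1c19, an aldo-keto reductase, rose by 0.70 on the log2 scale (adjusted p 0.00790, 12 libraries 0.0260). The galectin gene Lgals1 rose by 0.95 (adjusted p 0.0210, 12 libraries 0.0457), but not without Y665H replicate 3 (0.78, adjusted p 0.0670).

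The lowest fold change was in Cyp3a41a, a cytochrome P450 of the female mouse liver (chromosome 5, 145694049 to 145720136). Cyp3a41a lay at 7.58, 48.3 and 244 CPM in WT females and at 0.0282, 0.219 and 5.88 CPM in Y665H females. The groups did not overlap although each was spread widely, with WT replicate 4 the highest WT liver and Y665H replicate 3 the highest Y665H liver. The log2 fold change was -5.53 (SE 0.68, adjusted p 1.65e-05, 12 libraries 0.0265). Leaving out WT replicate 4 gave -4.62 and leaving out Y665H replicate 3 gave -6.71, both called, while quality weights gave -6.69 and no call (adjusted p 0.0639). Cyp3a41a has a near-identical copy, and its counts are uncertain to that extent.

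Slc25a25, a calcium-regulated mitochondrial ATP-Mg/phosphate carrier (chromosome 2, 32414487 to 32451445), was 148, 212 and 309 CPM in WT and 34.7, 59.8 and 73.2 CPM in Y665H females. Every Y665H liver was under every WT liver (log2 fold change -1.91, SE 0.33, adjusted p 0.00110, 12 libraries 0.000300).

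Cyp2g1, a P450 best known from olfactory tissue, was 7.57, 12.4 and 16.7 CPM in WT and 1.90, 3.91 and 4.50 CPM in Y665H (log2 fold change -1.75, SE 0.22, adjusted p 1.66e-05, 12 libraries 0.00567). Acnat2, an acyl-CoA:amino acid N-acyltransferase, was 38.3, 58.5 and 105 CPM in WT and 18.0, 27.2 and 37.8 CPM in Y665H (log2 fold change -1.24, adjusted p 0.00402, 12 libraries 0.0291). Neither gene's groups overlapped. The neuronal scaffold gene Dlgap1 (-1.85, adjusted p 0.000192), the melanin enzyme gene Dct (-2.24, adjusted p 0.00110), Dtx1, a regulator of Notch signalling (-1.22, adjusted p 0.000234), and the muscle actin-binding gene Xirp1 (-1.29, adjusted p 0.0152) also fell in both fits. All 4 had a median of at most 4.20 CPM in WT females. Ugt1a10 fell by 1.24 on the log2 scale (adjusted p 0.00108), but it shares exons with the other Ugt1a genes and its level is uncertain.

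**Figure D3:**
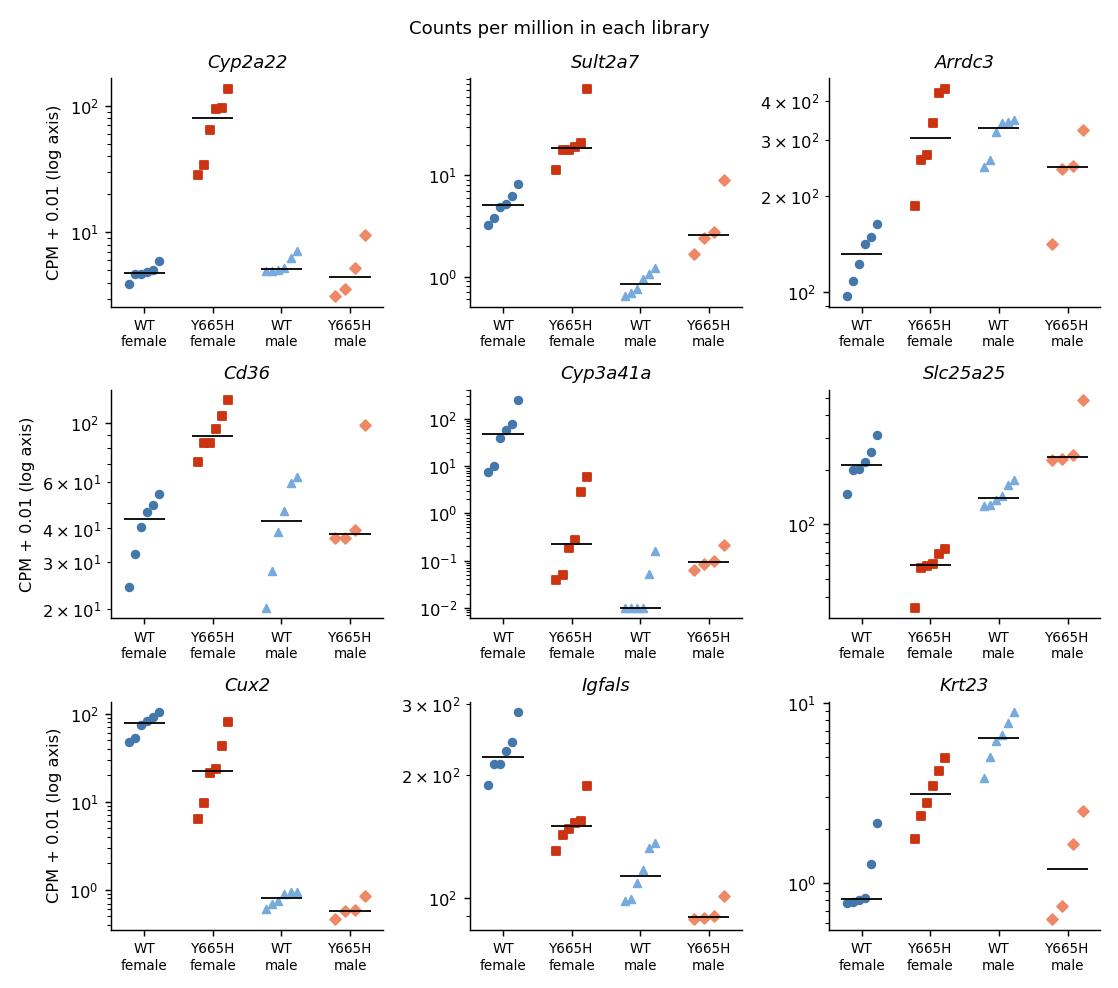
CPM (0.01 added, log axis) of 9 genes in each library of WT females, Y665H females, WT males and Y665H males, with the group median as a line. In females the 2 groups do not overlap for Cyp2a22, Sult2a7, Arrdc3, Cd36, Cyp3a41a, Slc25a25 and Igfals. They overlap for Krt23 by 1 WT library, and for Cux2.

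Whether the substitution shifts the sex-dependent program of the female liver was read from 38 female-biased and 37 male-biased genes, with male levels beside them. Of the female-biased genes, 7 fell and 2 rose (3.1% and 4.4% of all genes), with a median log2 fold change of -0.21. Of the male-biased genes, 5 rose and 1 fell, with a median of 0.20. The median over all genes was 0.0047. With the 12 libraries alone, 1 female-biased gene fell and 2 rose, and 1 male-biased gene rose, against 0.309% lower and 0.279% higher of all genes.

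Among the female-biased genes that fell were Cux2, Sult3a1, Atp6v0d2 and the P450s Cyp3a41a, Cyp3a16 and Cyp3a44. Cux2 (chromosome 5, 121856366 to 122050102) was 48.1, 78.1 and 104 CPM in WT females, 6.31, 22.2 and 80.8 CPM in Y665H females and 0.603 to 0.937 CPM in WT males. The female groups overlapped, with Y665H replicate 1 at the top and replicate 4 at the bottom of the Y665H livers. The log2 fold change was -1.30 (SE 0.32, adjusted p 0.0119), and the adjusted p with the 12 libraries was 0.175. Cyp3a16 changed by -4.96 (adjusted p 0.000653, 12 libraries 0.0831) and Cyp3a44 by -2.30 (adjusted p 0.00883, 12 libraries 0.168). Both overlapped between the groups, have close Cyp3a paralogs and rested in size on WT replicate 4, without which they were -2.86 (adjusted p 0.00535) and -1.60 (adjusted p 0.0485). Sult3a1, an amine sulfotransferase (-1.29, adjusted p 0.0407), and Atp6v0d2, a subunit of the vacuolar proton pump (-0.95, adjusted p 0.0363), passed narrowly. Without Y665H replicate 2 their adjusted p-values were 0.0940 and 0.0998, and they stayed called in 6 and 5 of the 12 fits that left out a library. Both are female-biased in WT livers here, with at most 0.0820 and 1.22 CPM in WT males. The members of the female-biased list that rose were Slc22a29 and Cd36. Cd36 was not higher in WT females here, at 24.0 to 53.7 CPM against 20.1 to 62.5 CPM in WT males.

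Of the 5 male-biased genes that rose, Mup20 and Cyp4a12a differed widely among the Y665H females. Mup20, the pheromone darcin of male urine, was 32.4, 37.5 and 52.5 CPM in WT females, 47.4, 73.8 and 754 CPM in Y665H females and 2650.5 to 4652 CPM in WT males. Y665H replicates 2 (754 CPM) and 4 (233 CPM) were the highest, and the others lay between 47.4 and 92.8 CPM. Its log2 fold change of 2.33 (SE 0.44, adjusted p 0.00229) was 1.23 without replicate 2 (adjusted p 0.0180), and the 12-library fit did not call it (0.0935).

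Cyp4a12a, a male-specific fatty acid hydroxylase, followed the same livers: replicates 2 and 4 held 30.5 and 23.7 CPM, the other Y665H females 0.239 to 3.79 CPM, the WT females 0.181 to 1.25 CPM and the WT males 267 to 459 CPM. Its log2 fold change of 3.91 (SE 0.73, adjusted p 0.00255) was 3.20 without replicate 2 (adjusted p 0.0125), and neither the 12-library fit (0.0837) nor quality weights (2.46, adjusted p 0.107) called it. Both genes have close paralogs, so these levels are uncertain. Nat8, Gstp1 and Nudt7 were the other male-biased genes that rose. Gstp1, a glutathione transferase, rose by 0.57 (adjusted p 0.0164) and not without Y665H replicate 2 (0.44, adjusted p 0.0764). Nudt7, a peroxisomal coenzyme A hydrolase, rose by 0.47 (adjusted p 0.0167) and not without Y665H replicate 5 (0.41, adjusted p 0.0524).

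Serpina12, the adipokine vaspin, was the male-biased gene that fell, from 3.83, 7.29 and 9.95 CPM in WT to 0.633, 1.19 and 6.17 CPM in Y665H females (log2 fold change -1.81, adjusted p 0.0158). It was not called with the 12 libraries (adjusted p 0.0854), with quality weights (0.179) or without Y665H replicates 2 and 6 (0.0528). Without Y665H replicate 4 it was -2.57 (adjusted p 0.00280), and without Y665H replicate 2 it was -1.65 (adjusted p 0.04996). Y665H replicates 2 and 4, high in Mup20, also held low shares in no feature (8.16% and 7.21%). Replicate 5 had a low share too, 7.39%, but held 92.8 CPM of Mup20 and 3.79 CPM of Cyp4a12a. With that share as a covariate Mup20 (adjusted p 0.0229), Cyp4a12a (0.0345) and Cux2 (0.0241) stayed called.

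The growth hormone and STAT5 pathway was followed over 34 genes, none of which rose and 2 of which fell, Igfals and Cux2, against 3.1% of all genes called lower. The median log2 fold change was -0.07. Neither Stat5b nor Stat5a was called. Stat5b was 72.5, 81.9 and 104 CPM in WT and 77.8, 82.7 and 86.6 CPM in Y665H females (log2 fold change -0.04, SE 0.07, adjusted p 0.777). Stat5a was 18.8 to 26.0 CPM in WT and 19.5 to 24.3 CPM in Y665H (log2 fold change -0.03, SE 0.10, adjusted p 0.881).

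Igfals encodes the acid-labile subunit that holds IGF1 in the circulation and is a textbook STAT5B target (chromosome 17, 24865997 to 24882010, plus strand). It was 189, 221 and 286 CPM in WT and 130.2, 150.3 and 188 CPM in Y665H females. The highest Y665H liver, replicate 3, was just under the lowest WT liver. The log2 fold change was -0.58 (SE 0.09, adjusted p 0.000367, 12 libraries 0.0155), and it stayed called with the share in no feature as a covariate (6.55e-05) and with quality weights (0.00279). WT males lay at 98.3 to 136 CPM and Y665H males at 88.3 to 101 CPM (log2 fold change -0.32, adjusted p 0.0426).

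A stretch before the RefSeq start of Igfals is shown because Igfals was the pathway gene called in both fits, and that of Cyp3a41a because it was the lowest of the 73. Both are from RefSeq (GRCm38.p6), written 5′ to 3′ on the gene's strand, and capitals mark a TTCNNNGAA match. The Igfals stretch, chr17:24877594-24877655, is the 62 bases farthest from the start in a window of 250 bases, and the rest of the window is not shown. It lies between exons of a longer GENCODE model of the gene, and its match begins 236 bases before the RefSeq start. The Cyp3a41a window, chr5:145720137-145720386, holds no match in its 250 bases, which says only that these letters are not in this window.
Igfals: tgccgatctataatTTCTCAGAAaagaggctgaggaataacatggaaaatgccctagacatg
Cyp3a41a: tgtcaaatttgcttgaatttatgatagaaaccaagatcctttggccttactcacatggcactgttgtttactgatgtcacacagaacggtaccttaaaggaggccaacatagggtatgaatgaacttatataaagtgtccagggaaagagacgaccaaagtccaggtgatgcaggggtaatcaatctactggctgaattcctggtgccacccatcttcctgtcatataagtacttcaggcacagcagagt
TTCNNNGAA reads the same on both strands. It occurred in the 250 bases before the start of 1931 of all 27025 RefSeq promoters (7.15%) and of 703 of 11315 tested genes with a promoter (6.21%). Among called genes it occurred in 25 of 498 higher (5.02%) and 25 of 340 lower (7.35%) promoters. A match is a description of the letters, not of binding.

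Other known STAT5 targets were not called with all 37 libraries. Gadd45g, a growth arrest gene, was 2.71, 5.77 and 21.1 CPM in WT and 1.06, 1.49 and 2.34 CPM in Y665H females. The groups did not overlap, and the log2 fold change of -2.30 (SE 0.80) had an adjusted p of 0.0675 with all 37 libraries. It was called with the 12 libraries (0.0435), with the 18 female libraries (0.0154) and by DESeq2 (0.0159). The feedback inhibitors Cish and Socs2 were not called: Cish was 26.0 to 60.0 CPM in WT and 14.1 to 31.4 CPM in Y665H (log2 fold change -0.88, SE 0.51, adjusted p 0.288), and Socs2 differed by -0.29 (SE 0.33, adjusted p 0.622). Igf1, the main circulating effector of growth hormone, was 626, 687 and 825 CPM in WT and 493, 593 and 646 CPM in Y665H (log2 fold change -0.25, SE 0.10, adjusted p 0.126). Bcl6 was 11.0, 11.2 and 16.0 CPM in WT and 10.6, 18.5 and 33.4 CPM in Y665H (log2 fold change 0.64, SE 0.29, adjusted p 0.163). Both ranges overlapped between the groups.

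The longest gene list, xenobiotic metabolism, had the most calls by number. It holds the oxidising, conjugating and transport genes of the nuclear receptors CAR and PXR and of AhR. Shorter lists also had many calls for their size: 4 of 13 T and NK cell markers fell, and of 38 female-biased genes 7 fell and 2 rose. Of 61 tested xenobiotic genes, 14 rose and 1 fell, against 4.4% and 3.1% of all genes. The median log2 fold change was 0.24 and 44 were above 0. In 7 the groups did not overlap, against 1.59% of all genes. The counts were 8 higher and 0 lower with the 12 libraries, 6 and 1 with quality weights, 8 and 1 with the share in no feature as a covariate, 7 and 1 without Y665H replicate 2, and 18 and 2 without Y665H replicate 6. Over all genes those fits called, in the same order, 38 and 42 of 13609, 194 and 127 of 15152, 220 and 232 of 15152, 240 and 202 of 15166, and 1473 and 1270 of 15163. The summed level of the list was 21560.3 to 27346 CPM in WT and 23279.6 to 33994.6 CPM in Y665H livers, with Y665H replicate 2 the highest.

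Phase I enzymes that rose included Cyp2c55 (3.90, 6.05 and 8.96 CPM in WT and 10.2, 16.8 and 27.1 CPM in Y665H, log2 fold change 1.53, SE 0.27, adjusted p 0.00151, 12 libraries 0.0155). Its groups did not overlap. Cyp2c29, an abundant arachidonic acid epoxygenase with close Cyp2c paralogs, was 1184, 1346 and 1727 CPM in WT and 1686, 2067 and 2893 CPM in Y665H (log2 fold change 0.61, SE 0.11, adjusted p 0.00207, 12 libraries 0.0417). The retinaldehyde dehydrogenase gene Aldh1a1 was 654, 802 and 1162 CPM in WT and 1102, 1331 and 1649 CPM in Y665H (log2 fold change 0.67, SE 0.12, adjusted p 0.00146, 12 libraries 0.0265). The groups of both genes overlapped, with all 6 Y665H livers above the WT mean. Cyp3a11, the classic PXR target, was 2185, 2408 and 2721 CPM in WT and 2877, 3569.9 and 4337 CPM in Y665H. Its groups were separate, but it was not called with all 37 libraries (log2 fold change 0.60, SE 0.26, adjusted p 0.146). Among the alternatives run it was called with the 12 libraries (log2 fold change 0.59, adjusted p 0.0155) and with no other.

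Conjugating and hydrolysing enzymes were also among the called members. The carboxylesterase Ces2a (293 to 336 CPM in WT and 369 to 524 CPM in Y665H, without overlap) rose by 0.42 (adjusted p 0.00883, 12 libraries 0.0431), and the glutathione transferase Gsta4 rose by 0.60 (adjusted p 0.0154, 12 libraries 0.0475). The glutathione transferases Gstm3 (0.84), Gstm4 (0.40), Gstm1 (0.49) and Gsta3 (0.38), the glucuronosyltransferases Ugt2b34 (0.29) and Ugt2b36 (0.30) and the epoxide hydrolase Ephx1 (0.39) rose in the fit to all libraries and were not called with the 12. These 7 lost the call without Y665H replicate 2 (adjusted p 0.0582 to 0.124) and also without WT replicate 5 (0.0561 to 0.0858). Sult5a1, a sulfotransferase, was the member that fell, from 17.5, 25.5 and 40.8 CPM in WT to 2.71, 9.80 and 13.6 CPM in Y665H. It did not overlap between groups (log2 fold change -1.64, SE 0.34, adjusted p 0.00475, 12 libraries 0.0541).

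**Figure D4:**
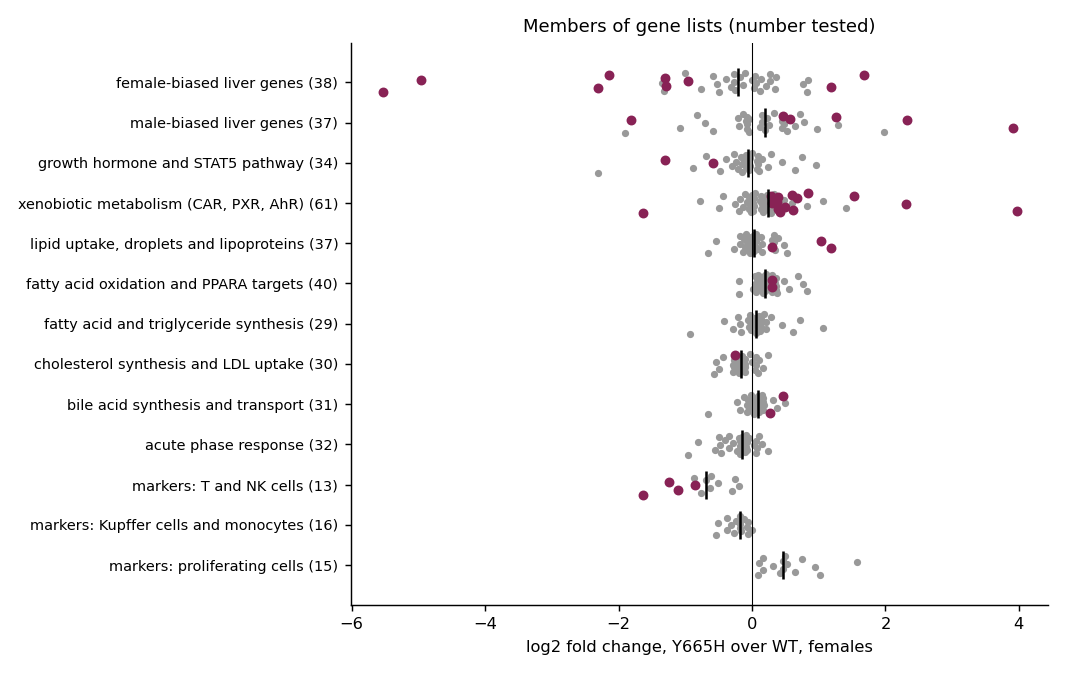
Log2 fold change of Y665H over WT females for the tested members of 13 gene lists, with the list median as a line. Dark points are called genes. The xenobiotic list has 14 called members above 0 and 1 below, and all 13 T and NK cell markers lie below 0.

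Of 37 genes of lipid uptake, droplets and lipoproteins, 3 rose, against 4.4% of all genes, and none fell. With the 12 libraries 2 rose, against 0.279% of all genes. The median log2 fold change of the list was 0.03, and 15 members were below 0. Cd36, the fatty acid translocase (chromosome 5, 17781690 to 17888801), was 24.0, 43.3 and 53.7 CPM in WT and 71.0, 89.2 and 121 CPM in Y665H females. No values overlapped (log2 fold change 1.19, SE 0.26, adjusted p 0.00537, 12 libraries 0.00871). Fitm1, a protein of lipid droplet formation, was 5.28, 6.73 and 9.90 CPM in WT and 11.5, 15.3 and 17.4 CPM in Y665H, also without overlap (log2 fold change 1.03, SE 0.25, adjusted p 0.0105, 12 libraries 0.00871). Apoc1, an apolipoprotein, rose by 0.30 (adjusted p 0.0460), which was lost in 9 of the 12 fits without a library, most without Y665H replicate 2 (adjusted p 0.210).

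Of 40 genes of fatty acid oxidation, 38 had a log2 fold change above 0 with a median of 0.20, and 2 were called, both higher, against 4.4% of all genes. One of them was the peroxisomal transporter Abcd3 (0.30, adjusted p 0.0432). Abcd3 was not called with the 12 libraries (adjusted p 0.0846) and stayed called in 2 of the 12 fits that left out a library. The number called in this list was 9, all higher, without Y665H replicate 6 and 0 without replicate 2. Over all genes the number called higher also moved, to 1473 of 15163 without replicate 6 and 240 of 15166 without replicate 2. Of 29 genes of fatty acid and triglyceride synthesis, 0 were called in the fit to all 37 libraries. At an unadjusted p under 0.05 there were 4, against 3737 of all 15152 genes. Among the alternatives the number called was 0 with the 12 libraries, 2 with the 18 female libraries, 3 without Y665H replicate 6 and 1 by DESeq2.

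Bile acid synthesis and transport held 2 called genes of 31, both higher, against 4.4% of all genes, and 0 with the 12 libraries. Scp2, the sterol carrier and peroxisomal thiolase, was 1245, 1435 and 1494 CPM in WT and 1546, 1697 and 2821 CPM in Y665H, without overlap (log2 fold change 0.46, SE 0.10, adjusted p 0.00617, 12 libraries 0.121). Akr1c6, a hydroxysteroid dehydrogenase, rose by 0.27 (adjusted p 0.0397) and stayed called in 5 of the 12 fits that left out a library. It was weakest without Y665H replicate 2 (0.22, adjusted p 0.134). Cyp7a1, the rate-limiting enzyme of bile acid synthesis, was 215, 386 and 495 CPM in WT and 196, 332 and 395 CPM in Y665H (log2 fold change -0.22, SE 0.34, adjusted p 0.728).

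In cholesterol synthesis and LDL uptake 1 of 30 genes was called, and it fell, against 3.1% of all genes. Scap, the sterol sensor that escorts SREBP, fell by 0.25 on the log2 scale (adjusted p 0.0260, 12 libraries 0.141). It stayed called in 8 of the 12 fits that left out a library and was weakest without Y665H replicate 2 (adjusted p 0.0877). The median of the list was -0.17. Sqle, squalene epoxidase, was 51.4, 207 and 241 CPM in WT and 66.7, 111 and 183 CPM in Y665H (log2 fold change -0.57, SE 0.30, adjusted p 0.232). In WT, replicate 1 was the lowest and far from the others.

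Markers of the other cell types of the liver were read in the same way. Of 13 tested T and NK cell markers, 4 fell, all 13 had a fold change below 0, and the median was -0.69. Their summed level was 5.54 to 8.28 CPM in WT and 3.01 to 5.32 CPM in Y665H females, with no overlap, and 3.1% of all genes fell. In bulk tissue, fewer cells of a type and less RNA per cell cannot be told apart. Gzmb, granzyme B of cytotoxic cells, was 0.455, 0.523 and 0.867 CPM in WT and 0.113, 0.141 and 0.371 CPM in Y665H (log2 fold change -1.63, SE 0.30, adjusted p 0.00215, 12 libraries 0.0290). The NK receptor gene Klrb1c (-1.25, adjusted p 0.0189), the T cell kinase Lck (-0.85, adjusted p 0.0231) and the NK receptor gene Ncr1 (-1.11, adjusted p 0.0497) were the others. Klrb1c was 0.278 to 0.614 CPM in WT and 0.106 to 0.271 CPM in Y665H. Ncr1 was 0.111 to 0.433 CPM in WT and 0.0287 to 0.225 CPM in Y665H. Counting error weighs heavily at such levels. Without Y665H replicate 2 the adjusted p-values of Klrb1c, Lck and Ncr1 were 0.0541, 0.0658 and 0.106. Lck stayed called in 9 and Ncr1 in 4 of the 12 fits that left out a library. The count of 4 was 1 with the 12 libraries, 0 with quality weights and 1 with the share in no feature as a covariate. Over all genes those fits called 42 of 13609, 127 of 15152 and 232 of 15152 lower.

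Il2rb, the beta chain of the IL-2 and IL-15 receptor, which signals through STAT5 in these cells, was among the 73. It lay at 2.58, 3.80 and 4.08 CPM in WT and at 1.31, 1.67 and 2.09 CPM in Y665H, without overlap (log2 fold change -1.08, SE 0.18, adjusted p 0.000653, 12 libraries 0.00871). The lymphocyte GTPase Gimap3 was 1.62, 2.14 and 2.71 CPM in WT and 0.752, 1.02 and 1.32 CPM in Y665H, again without overlap (log2 fold change -1.05, adjusted p 0.00155, 12 libraries 0.0183). Both fell in males too: Il2rb by 0.85 on the log2 scale (adjusted p 0.00585) and Gimap3 by 0.85 (adjusted p 0.00673). Of the 13 T and NK cell markers, 2 were called lower in Y665H males, against 3.18% of all genes. In males 2 of the 13 were above 0, and the median was -0.54. The part of the T and NK cell markers in the changes of Il2rb and Gimap3 was not tested.

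No marker was called for B and plasma cells (8 tested), Kupffer cells and monocytes (16), neutrophils (13), stellate cells and fibroblasts (14), cholangiocytes (9), endothelial cells (12), proliferating cells (15), adipose tissue (3) or pancreas (2). DESeq2 called 2 neutrophil markers, both lower, and none of the others. At an unadjusted p under 0.05 there were 1, 2, 2, 2, 1, 0, 3, 1 and 0 genes in that order, against 3737 of all 15152 genes. Adipose and pancreas lists had 2 and 5 members at 0 counts in all 12 livers. All 16 Kupffer cell markers were below 0 (median -0.18), with summed levels of 454 to 712 CPM in WT and 269 to 688 CPM in Y665H livers and medians of -0.28 to 0.02 over the alternatives. All 15 proliferation markers were above 0 (median 0.47, and -0.03 to 0.82 over the alternatives). Their summed level was 124 CPM in Y665H replicate 3 and 42.9 to 66.3 CPM in the other Y665H livers, with 48.8 to 62.0 CPM in WT. With Y665H replicates 2 and 6 left out, 8 of the 15 were called higher, against 997 of all 15180 genes in that fit. Of 3 erythroid markers, 2 were below 0, the median was -0.29 and the lowest -0.90. The third, Alas2, rose by 0.43 (adjusted p 0.0487), a call lost in 9 of the 12 fits without a library, most without Y665H replicate 4 (adjusted p 0.189).

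Stress and homeostasis lists were read against the 4.4% of all genes called higher and the 3.1% called lower. Over all genes, 3737 of 15152 had an unadjusted p under 0.05, and DESeq2 called 781 higher and 633 lower of 15150. No gene was called for the interferon response (40 tested, 1 at an unadjusted p under 0.05, 0 by DESeq2), the acute phase response (32, 2 and 0), the circadian clock (20, 4 and 0), glucose metabolism (24, 6 and 3, all 3 lower) or pericentral zonation (20, 1 and 0). The hepatocyte markers had 2 at an unadjusted p under 0.05 and 0 by DESeq2. Gdf15, a stress cytokine, was the called gene of 27 in the ER and amino acid stress list, at 1.55, 3.45 and 5.11 CPM in WT and 4.96, 5.60 and 13.4 CPM in Y665H (log2 fold change 1.13, SE 0.26, adjusted p 0.00808, 12 libraries 0.0900). Cdh1, E-cadherin, was the called gene of 17 in periportal zonation, lower by -0.39 on the log2 scale (adjusted p 0.0435). That call was lost in 9 of the 12 fits without a library, most without Y665H replicate 2 (adjusted p 0.123).

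Whether the substitution had the same effect in both sexes was tested as the difference between its log2 fold change in females and in males. This difference was called for 794 genes (5.24%), 348 positive (2.3%) and 446 negative (2.94%). Male libraries were deeper, with 49141951 to 69038724 gene counts in WT males against at most 40864173 in the 12 female libraries, and depth cannot be told apart from sex. In males alone, Y665H against WT called 1273 genes (8.4%), 791 higher (5.22%) and 482 lower (3.18%). Of the 73 genes called in both female fits, the difference was called for 31. The difference contains the female fold change by which the 73 were chosen. The 31 are therefore not separate evidence of a sex difference, and are not to be set against the 5.24% of all genes. In males 13 of the 73 were called, 10 in the direction of the females and 3 in the opposite direction.

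Krt23 moved in opposite directions. It was 3.83, 6.40 and 8.91 CPM in WT males and 0.617, 1.18 and 2.51 CPM in Y665H males, a log2 fold change of -2.21 (adjusted p 8.21e-05) against 1.57 in females. The difference was 3.77 (adjusted p 1.60e-05). Cyp2a22 had no such rise in males, where WT livers lay at 4.90 to 7.09 CPM and Y665H livers at 3.12 to 9.56 CPM (difference 4.01, adjusted p 0.0204, and 0.0612 without Y665H male replicate 3). Slc25a25 was 127 to 176 CPM in WT males and 226 to 482 CPM in Y665H males, without overlap, the reverse of the order in females. Its fold change in males was 1.01 (adjusted p 0.0644) and the difference was -2.93 (adjusted p 0.000667).

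Sult2a7 rose in both sexes. In males it was 0.631 to 1.21 CPM in WT and 1.68 to 8.96 CPM in Y665H (log2 fold change 2.16, adjusted p 0.00128), and Dtx1 (-1.17, adjusted p 0.000123) and Dlgap1 (-1.37, adjusted p 0.00133) fell in males as in females. For the xenobiotic list the difference was called for 11 of 61 genes, all positive (6 without Y665H male replicate 3), against 2.3% of all genes. In males 1 of the 61 was higher and 9 were lower, against 5.22% and 3.18% of all genes. Cyp2c55 (difference 1.87, adjusted p 0.00555), Gsta4 (1.13, adjusted p 0.00436) and Ces2a (0.69, adjusted p 0.00555) were among the 11.

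The difference was negative for 14 of 30 genes of cholesterol synthesis and LDL uptake (12 without Y665H male replicate 3, 10 without Y665H female replicates 2 and 6), against 2.94% of all genes. In males 17 of the 30 were higher in Y665H (median 0.71), against 5.22% of all genes, and in females none was. Sqle was 15.8, 17.4 and 19.6 CPM in WT males and 67.0, 96.8 and 98.7 CPM in Y665H males (log2 fold change 2.36, adjusted p 2.97e-05). The Y665H males were thus within the range of the Y665H females, 66.7 to 183 CPM. The difference for Sqle was -2.93 (adjusted p 0.000337). Cyp7a1 was 19.3 to 44.2 CPM in WT and 24.4 to 216 CPM in Y665H males, and its difference of -1.99 (adjusted p 0.0188) was not called without Y665H male replicate 3 (-1.22, adjusted p 0.155).

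The acute phase list had 11 negative differences of 32 genes (6 without Y665H male replicate 3), against 2.94% of all genes. Saa1, serum amyloid A, was 694 and 907 CPM in Y665H male replicates 3 and 2 and 27.2 and 54.0 CPM in the others, with 11.5 to 29.0 CPM in WT males. In females it was 19.3 to 51.6 CPM in WT and 14.3 to 33.3 CPM in Y665H. Its difference of -4.84 (adjusted p 0.0195) was lost without male replicate 2 or 3 (adjusted p 0.0502 and 0.0552), and Saa1 and Saa2 are near-identical, so reads may be split between them. Mt2, a metallothionein, was 0.689 to 1.77 CPM in WT males and 4.44 to 11.5 CPM in Y665H males, and 31.3 to 130.1 and 9.92 to 143 CPM in the female groups (difference -3.27, adjusted p 0.00222). Of 40 interferon genes, 4 had a called difference, all negative (1 without Y665H male replicate 3), and 11 were higher in Y665H males, against 2.94% and 5.22% of all genes. Some markers of immune cells were also higher in Y665H males. Of 16 Kupffer cell and monocyte markers, 5 were higher in Y665H males, 15 were above 0 (median 0.51), and 5 had a negative difference between the sexes (2 called without Y665H male replicate 3). Their summed level was 249 to 367 CPM in WT and 374 to 517 CPM in Y665H males. Of 13 neutrophil markers, 2 were higher in Y665H males (median 1.39), with summed levels of 1.32 to 2.07 CPM in WT and 1.68 to 8.47 CPM in Y665H males. The part of these cells in the acute phase and interferon differences was not tested.

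**Figure D5:**
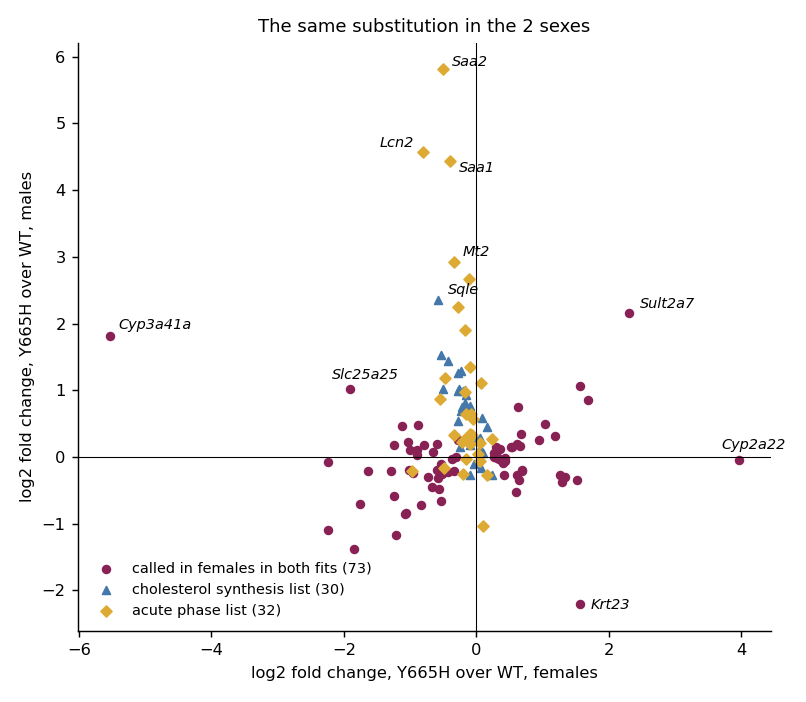
Log2 fold change of Y665H over WT in females (horizontal) and in males (vertical) for the 73 genes called in both female fits, the 30 cholesterol genes and the 32 acute phase genes. Krt23 is above 0 in females and below 0 in males, Slc25a25 the reverse, and Sqle, Saa1, Saa2, Lcn2 and Mt2 lie high in males with female values between -0.80 and -0.34.

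Livers of females with the other substitution, Y665F, were compared with the same 6 Y665H livers. Between them 8564 genes were called (56.5%), 4619 higher in Y665H (30.5%) and 3945 lower (26%). Y665F against WT shares the WT livers with the comparison above, so only levels are set side by side. Cux2 was 224 to 276 CPM in Y665F females, above all WT (48.1 to 104) and all Y665H females (6.31 to 80.8), and Y665H differed from Y665F by -3.01 (SE 0.33, adjusted p 2.27e-09). Cyp3a41a was 498 to 688 CPM in Y665F females, also above all WT livers, and Y665H differed from Y665F by -8.48 (adjusted p 1.21e-11). Il2rb, at 6.01 to 7.71 CPM, Cyp2g1, at 34.5 to 40.5 CPM, and Dct, at 11.8 to 20.0 CPM in Y665F, also lay highest in Y665F, with no overlap with WT.

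Levels in Y665F females differed from gene to gene. Cyp2c55 was 1.30 to 4.78 CPM in Y665F, under all Y665H livers (10.2 to 27.1), with a log2 difference of 2.62 (adjusted p 3.30e-09). Sult2a7 was at most 0.156 CPM in Y665F, against 11.2 CPM or more in Y665H. Cd36 was 93.6 to 158 CPM in Y665F and 71.0 to 121 CPM in Y665H, a difference of -0.34 (SE 0.25, adjusted p 0.255) with overlapping groups. Igfals was 190.2 to 219.6 CPM in Y665F, above all Y665H livers (130.2 to 188), with a difference of -0.45 (SE 0.09, adjusted p 8.33e-05).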

How the data were processed

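The authors deposited 1 table of raw counts per gene symbol for each of the 37 libraries. Per the submitters' processing notes, FastQC 0.11.9, Trimmomatic 0.36, STAR, SAMtools 1.9, Picard 2.9.2 and HTSeq 0.9.1 were used with the build mm10, while the annotation and strand setting are not given in the sources used here. The 5 rows of each table that name no gene (no feature, aligned to more than 1 place and the like) held 32.4% to 49.9% of the counted items in a library and stayed out of library sizes and tests. Reads aligned to more than 1 place are in such a row, which lowers the counts of genes with near-identical copies.

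Counts were fitted in R 4.3.3 with edgeR 4.0.16 (TMM, filterByExpr with a minimum count of 10 and total of 15, 15152 of 24421 genes kept, glmQLFit and glmQLFTest) with a mean per group over all 37 libraries, and p-values were adjusted by Benjamini-Hochberg over all genes of a comparison. SE values are the log2 fold change over the root of F, and CPM are TMM-scaled. The principal components used log2 CPM with a prior count of 2. Alternatives were the 12 or the 18 female libraries alone, no filter, DESeq2 1.42.0 and its size factors, limma-voom (limma 3.58.1) with group weights, a replicate block, 2 covariates, a log2 fold change limit of 1 and leaving out each library. No pair of the 12 libraries agreed within sampling noise (chi-square per gene 22.6 to 174).

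The gene lists and the members were chosen with earlier results of these data known. The text names Stat5a, Stat5b, Xist and Ddx3y, the 12 highest and 12 lowest fold changes called in both fits (a group mean of 1 CPM or more, all 6 Y665H livers above or all below the WT average, no predicted gene names), members of each list with the lowest p, the 4 highest and 4 lowest female-minus-male differences and a fixed panel. Not every gene the rule names is reported here. Cyp3a44, Sult3a1, Atp6v0d2, Nudt7, Sult5a1, Ces2a, Gsta4, Gstm3, Gstm4, Ugt2b34, Gstm1, Gsta3, Ugt2b36, Ephx1 and Erdr1 fall outside it and were chosen after their values were seen. Positions are from GENCODE M21 (GRCm38). With 25557377 to 40864173 gene counts in the 12 libraries, counting error weighs most on genes under 1 CPM.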

Additional observations from a re-analysis of the deposited data

Results flagged for a closer look

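In 11 of 156 groups of 6 female libraries checked, a single library stood apart from the rest by Dixon's ratio, and chance alone gives about 1 in 20. Y665H replicate 2 stood apart in 4 of them: Sult2a7 was 71.7 CPM against 21.0 in the next liver, Slc25a25 was 34.7 CPM against 57.3, Gsta3 was 1607.5 CPM against 1205, and its gene counts were lowest at 27176972. Y665H replicate 6 was low in Socs2 (13.9 CPM, next 36.9), Y665H replicate 4 was low in Cyp7a1 (196 CPM, next 310.2) and Y665H replicate 1 was at 0 for Erdr1 (next 1.66 CPM). Among WT females, replicate 1 was low in Dlgap1 (1.52 CPM, next 3.01), Sqle (51.4 CPM, next 139) and Scp2 (1245 CPM, next 1404), and replicate 4 was low in Lck (0.607 CPM, next 0.983).

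For 24 of the genes named, the effect of Y665H in females minus that in males was itself called. The difference on the log2 scale was positive, with a rise in females and a male value below 0, for Cyp2a22 (4.01), Krt23 (3.77), Cyp4a12a (4.18), Cyp2c55 (1.87), Arrdc3 (1.66), Nat8 (1.54), Gsta4 (1.13), Akr1c19 (0.90), Ces2a (0.69), Apoc1 (0.59), Scp2 (0.50) and Ugt2b36 (0.48). It was also positive for Mup20 (2.20), with a male value of 0.13, for Bcl6 (1.42), not called in either sex alone, and for the glutamate receptor gene Grm8 (3.59), which lay at 1.02 to 3.70 CPM in WT males, 0.0882 to 0.236 CPM in Y665H males and at most 0.143 CPM in both female groups. It was negative for Slc25a25 (-2.93), Acnat2 (-1.42) and Scap (-0.40), which fell in females. For Sqle (-2.93), Cyp7a1 (-1.99), Saa1 (-4.84), Saa2 (-6.31), the siderophore-binding Lcn2 (-5.38) and Mt2 (-3.27) the difference was negative with a rise in males and no call in females.

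Leaving out 1 library ended the call of the difference for 9 of these genes. Without Y665H male replicate 3 the adjusted p-value was 0.0612 for Cyp2a22, 0.0785 for Akr1c19, 0.155 for Cyp7a1, 0.0756 for Ugt2b36, 0.0764 for Mup20, 0.102 for Scp2 and 0.0552 for Saa1. Without Y665H male replicate 2 it was 0.0565 for Akr1c19, 0.0959 for Acnat2 and 0.0502 for Saa1, and without WT female replicate 4 it was 0.0532 for Acnat2. Without Y665H female replicate 2 it was 0.131 for Mup20, 0.0842 for Scp2 and 0.0533 for Ugt2b36. For Bcl6 it was 0.0833 without Y665H male replicate 1 and 0.0824 without Y665H male replicate 4. Over the 22 fits that left out a library the difference was called in 14 for Mup20, 10 for Bcl6 and 7 for Scp2.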

How the results depend on the processing

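The number of genes called between Y665H and WT females (1136) was 80 with only the 12 libraries, 384 with the 18 female libraries, 757 with no filter on low counts, 321 with limma-voom group weights, 452 with the share in no feature as a covariate, 1910 without Y665H replicates 2 and 6, and 137 beyond a log2 fold change of 1 in size (24 higher, 113 lower). Over fits without 1 of the 12 libraries it ran from 442 (without Y665H replicate 2) to 2743 (without Y665H replicate 6), and was 645 without WT replicate 5, 697 without WT replicate 2 and 689 without Y665H replicate 5. Calls in the gene lists (45 of 604) were 16 with the 12 libraries, 21 with group weights, 70 without replicates 2 and 6, and 26 (without replicate 2) to 82 (without replicate 6) with 1 library left out. The female minus male difference (794) was called for 1652 genes with the share in no feature as a covariate, 1245 with DESeq2, 148 with a log2 limit of 1, and 332 (without Y665H male replicate 3) to 1355 (without Y665H female replicate 6). Y665H against Y665F females (8564) was 1703 with that limit. The no-feature covariate and the pair of replicates were chosen after seeing the data. The causes were not tested.

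Same-numbered WT and Y665H females did not deviate together (correlations -0.225 to 0.0423), and the main fit did not treat them as pairs. Low correlations cannot exclude a link between same-numbered samples. With a replicate block 920 genes were called. The no-gene share differed by 0.116 percentage points (-0.671 to 0.675 with a library left out), the share in no feature alone by -1.98 and that aligned to more than 1 place by 2.12. Uncalled fold changes that changed sign were those of Stat5a (-0.083 to 0.011 with a library left out), Stat5b (-0.085 to 0.026), and Saa1 (0.30) and Saa2 (0.22) with the no-feature covariate.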

Other observations

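Erdr1, an erythroid differentiation regulator gene at the end of the X chromosome, differed in a way outside the lists and was singled out after its values were seen. It had 0 counts in all 6 WT females and 0, 1.66, 2.22, 3.44, 3.24 and 6.64 CPM in Y665H females 1 to 6. In Y665F females it was at 0 except for 0.0333 CPM in 1 liver. WT males lay at 0.175 to 2.89 CPM and Y665H males at 0 to 5.83 CPM, so values above 0 and values at 0 both occur among other groups. The adjusted p was 0.0226 in the fit to all libraries (edgeR), 0.228 with quality weights, and the gene did not pass the filter of the 12-library fit. No fold change is given, since the WT female level is 0.

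The gene span of the calls is given as medians and was not tested. The median span was 22083 bases over all genes tested, 19799 over those called higher and 25316 over those called lower.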
